A study of Mus musculus with 6 samples.

Results

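The transcripts described here are those of the Wnt pathway's secreted and surface components and of its classical nuclear factors and feedback target, measured by RNA sequencing in mouse heart samples labelled as lymphatic endothelial cells. Members were chosen by symbol: every Wnt, Fzd, Sfrp, Dkk and Rspo gene of the table whose family name is followed by a number, together with Wif1, Lrp5, Lrp6, Axin2, Lef1, Tcf7 and Tcf7l2. This gave 41 of the 17714 genes in the table: 14 Wnt ligands, 10 Frizzled receptors, 2 co-receptors, 3 R-spondins, 8 secreted antagonists, 3 transcription factors and Axin2. The rule uses symbols and no measured value, but it was written with earlier results of these data known. Libraries came from 2 groups, sham operation and myocardial infarction (MI), both wild type and both labelled day 3, with 3 libraries each. For strain, age, sex and animals per library the sources used here give nothing. The labels disagree on the material: they name a lymphatic endothelial cell type kept in medium with serum, but also say that either heart tissue or primary heart endothelial cells were taken. Which of these was sequenced is not clear, so a level below may be that of a tissue or of a cell preparation. No sorting or purification step is stated. Nothing in them says that libraries came from separate animals, so a p-value here reflects the spread among 3 libraries a group, which may be technical.

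Wnt proteins are secreted, lipid-bearing signals that bind a Frizzled receptor together with the co-receptor Lrp5 or Lrp6. In the canonical branch this stops the destruction of beta-catenin, which then enters the nucleus and activates genes with the TCF and LEF factors, among them Axin2, a feedback inhibitor. Secreted frizzled-related proteins (Sfrp) and Wif1 bind Wnt ligands, Dickkopf proteins (Dkk) mostly act on the co-receptors, and R-spondins keep receptors at the surface. In vessels the pathway is best known for Fzd4, which carries Norrin and Wnt signals during retinal and brain angiogenesis, and in injured heart for signalling among fibroblasts.

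Depth and the levels of cell type marker genes both followed the group. Sham libraries held 3206732 to 3591473 counts and MI libraries 21154342 to 21689333, so that 1 count stood for 0.247 to 0.276 CPM (CPM being the count scaled to a common, TMM-adjusted library size) in sham and for 0.0519 to 0.0530 CPM in MI. Within a group, Pearson's r of log2 CPM across tested genes was 0.974 to 0.976 in sham and 0.988 to 0.995 in MI. By chi-square per gene, which also grows with depth, sham pairs lay at 1.54 to 1.77 and MI 2 with MI 3 at 4.14. Pairs of MI 1 lay at 35.3 (with MI 2) and 21.3 (with MI 3), so MI 1 stood apart. The defining lymphatic transcription factor gene Prox1 was present but low, averaging 7.12 ± 0.548 CPM in the sham libraries and 1.26 ± 0.456 CPM in the MI libraries (SD, n = 3), beside 1604 ± 19.6 and 386 ± 5.90 CPM of the pan-endothelial gene Pecam1. All 19 pan-endothelial genes tested were lower in MI (median log2 fold change -2.12; summed level 11164 to 11374 CPM in sham and 2589 to 2730 CPM in MI), and all 20 macrophage and monocyte genes were higher (median 2.32; 5244 to 5490 and 23724 to 27550 CPM). Fibroblast genes were 13 lower and 3 higher of 16 (median -1.79; 2968 to 3039 and 2435 to 2563 CPM), and genes of activated fibroblasts 6 higher and 4 lower of 11 (median 0.40; 1016 to 1056 and 2681 to 2912 CPM). Of the lymphatic genes, 14 of 18 were lower (median -2.01), Lyve1 going from 214 to 12.5 CPM, while Pdpn, Maf, Nrp2 and Stab1 rose. The summed level of the list, to which Stab1 gave 333 ± 23.3 CPM in sham and 1458 ± 49.8 CPM in MI, was 1266 to 1336 CPM in sham and 2124 to 2146 CPM in MI. Stab1 and Maf are also macrophage genes. All 12 pericyte and smooth muscle genes and all 14 cardiomyocyte genes were lower in MI (medians -1.72 and -4.36), and 9 of 10 neutrophil genes were higher (3.81). Of these lists, only the neutrophil list held a gene at 0 counts, 1 in sham. Their part in the values below was not tested, and fewer cells of a type cannot be told apart from less RNA per cell.

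Of the 41 Wnt genes, 21 (51.2%) reached a group mean of 1 CPM in sham or MI, against 75.9% of all genes in the table. All 21 reached it in sham and 15 of them also in MI, so 6 did so in sham only. These 6 (Wnt5a, Wnt9a, Fzd3, Wif1, Tcf7 and Axin2) held 2 to 13 counts per sham library. The share of all genes that reached it in sham only was not computed, so this split is a description. Of the 41, 20 passed the filter on low counts (0.808 CPM in at least 3 libraries) and were tested with edgeR's quasi-likelihood test at a Benjamini-Hochberg adjusted p of 0.05 over all 13370 genes tested. Of these, 6 were higher in MI, 12 were lower and 2 were not called. The corresponding shares over all tested genes were 36.4% higher, 36.9% lower and 73.3% in either direction. Among the 20, 5 members (Wnt9a, Fzd3, Wif1, Tcf7 and Axin2) passed the filter in all sham libraries but not in all MI libraries. That selects for a lower value in MI, so the count of falls, the median and the p-values of these 5 are descriptions only. Groups did not overlap for 18 of the 20, and for 76.1% of all tested genes. The median log2 fold change of the 20 was -0.93, beside -0.01 over all tested genes. It moved to -0.51 with a stricter filter, which leaves 15 members, to -0.28 with MI thinned to sham depth, which leaves 13, and to -0.54, -0.61 and -0.55 without MI 1, MI 2 or MI 3, which leave 18. In a test against a fold of 2 instead of no change, 2 members were higher and 7 lower, with 31.1% of all genes passing (15.9% higher, 15.3% lower). None of the 20 changed direction under another scaling. With scaling to total counts all 20 were called, 6 higher and 14 lower, while 26.5% of all genes were higher and 49.6% lower (76.1% either way). That scaling shifted the median over all genes to -0.36.

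**Figure D1:**
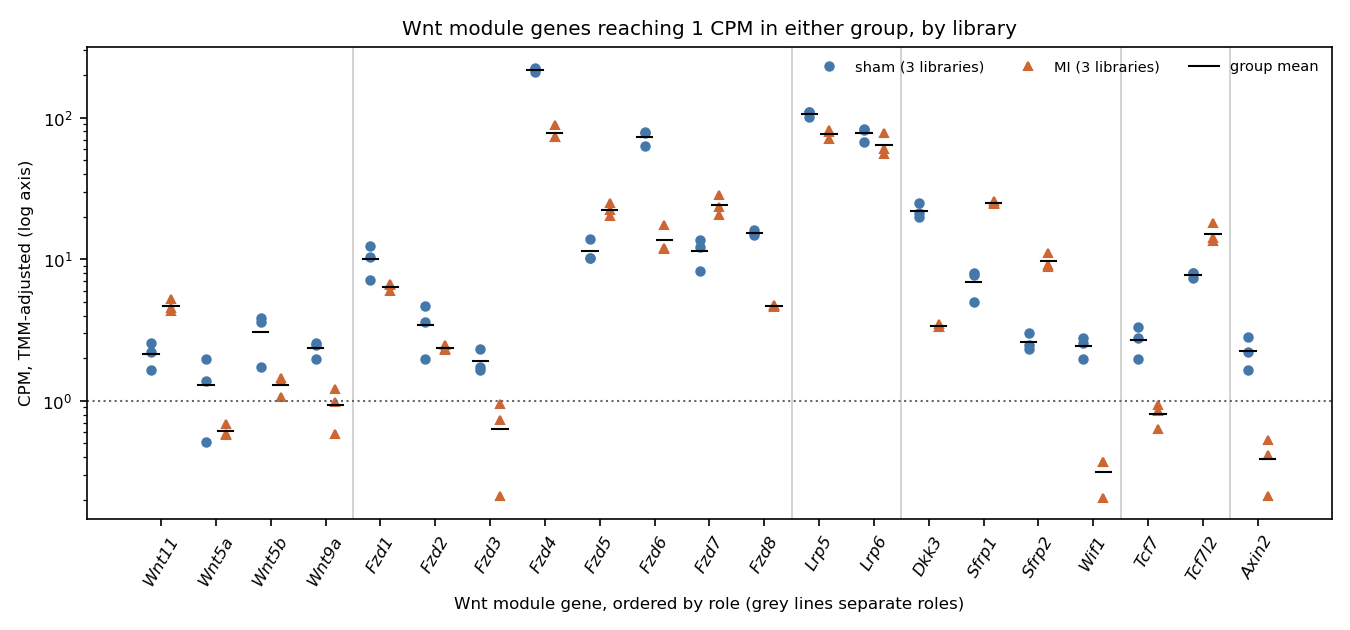
Level of each Wnt gene that reached 1 CPM, in CPM on a log axis, with a point for each library (circles sham, triangles MI), a bar at the group mean and a dotted line at 1 CPM. Fzd4, Lrp5, Lrp6 and Fzd6 stand highest in sham, and Wnt ligands, Wif1, Tcf7 and Axin2 lie close to the line.

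Ligand transcripts were scarce in both groups. Their summed level over 14 genes was 9.01 ± 1.63 TPM in sham and 6.66 ± 0.330 TPM in MI (TPM being a share of transcripts scaled to gene length; SD, n = 3), beside 124 ± 4.96 and 47.2 ± 8.98 TPM for the 10 Frizzled genes. The ligand sum covers only genes in the table, which held no Wnt3a, Wnt7a, Wnt7b, Wnt8b or Wnt10a. Wnt11, a ligand of the non-canonical branch known from heart development, was the ligand with the most transcript per length in MI. It stood at 2.23, 2.57 and 1.66 CPM in sham 1 to 3 and at 4.51, 4.34 and 5.24 CPM in MI 1 to 3, with every MI library above every sham library. Wnt11 rose 2.17-fold (log2 fold change 1.12 ± 0.27, SE, adjusted p = 0.00245 in edgeR's quasi-likelihood test), from only 6 to 10 counts per sham library against 82 to 101 per MI library. Its share of summed ligand TPM was 26.7 ± 5.52% in sham and 58.6 ± 4.32% in MI.

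Wnt5b, a non-canonical ligand, moved the other way. Its level was 1.73, 3.60 and 3.87 CPM in sham and 1.06, 1.38 and 1.45 CPM in MI, without overlap. Wnt5b fell 2.33-fold (log2 fold change -1.22 ± 0.35, adjusted p = 0.00742 in edgeR's test); the call was lost without sham 2 (adjusted p = 0.0524) or sham 3 (0.0560), and over all alternatives, the test against a fold of 2 included, the adjusted p ran from 0.00153 to 0.275. Wnt9a, a relative of the valve ligand Wnt9b, stood at 1.98, 2.57 and 2.49 CPM in sham and 0.583, 1.22 and 0.986 CPM in MI. It fell 2.50-fold (adjusted p = 0.00833 in edgeR's test), with 8 to 10 counts per sham library. The p-value is a description, as Wnt9a passed the filter in all sham but not in all MI libraries. Wnt5a, the non-canonical ligand most studied in inflammation, did not pass the filter. It had 8, 2 and 5 counts in the sham libraries and 11, 13 and 11 in the deeper MI libraries, so the groups overlapped at 1.98, 0.514 and 1.38 CPM against 0.583, 0.688 and 0.571 CPM. Leaving out sham 2 let Wnt5a pass the filter and the test as lower (adjusted p = 0.0247 in edgeR's test). Sham 2 was its lowest sham library, so leaving it out raises the sham mean, and that call is a description only.

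The other 10 ligand genes stayed under 1 CPM in both groups, with a highest group mean of 0.860 CPM (Wnt9b in sham). Wnt4 had 0 counts in all sham libraries and 10, 8 and 9 in MI. Its MI mean of 0.474 CPM was 1.82 times the level that 3 counts over the sham group stand for (0.260 CPM). The 95% counting interval of its ratio of MI to sham began at 1.38, and it covers counting error only. Wnt8a and Wnt1 also had no sham counts, but their MI means of 0.263 and 0.0353 CPM were close to or under what 3 sham counts stand for, so no fold is given. Canonical ligands such as Wnt3, with 1 count over the sham libraries and 0 over the MI libraries, and Wnt2, with 5 and 3 counts, were at the limit of detection. With no filter on low counts, where 57.0% of all genes passed (29.7% higher, 27.2% lower), Wnt4 (adjusted p = 0.0206 in edgeR's test) and Wnt9b (0.0360) were the otherwise untested members that did. Wnt9b, a ligand of heart valve development with 3, 5 and 2 counts in sham and 5, 5 and 1 in MI, also passed as lower without sham 1 (adjusted p = 0.0481 in edgeR's test) or sham 3 (0.0283). In both cases it passed the filter through sham libraries, which selects for a lower value in MI, so these calls are descriptions only.

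Promoter windows from RefSeq (build GRCm38.p6, 250 bases before to 50 bases after a start site) were found for 28 of the 41 genes, in 36 windows. They were searched for CTTTGA, a core of the sequence bound by TCF and LEF factors, and for TCAAAG, the same site on the other strand. The motif was in 5 of the 36 windows (13.9%) and in 16.0% of all 32851 windows of the table, so these shares were close. They were not adjusted for base content: the median share of G and C was 67.0% in member windows and 52.7% in all windows. The motif was found in 1 window each of Dkk1, Fzd1, Lef1, Wnt11 and Wnt5b. Windows for Fzd2, Fzd3, Fzd6, Fzd8, Lrp5, Lrp6, Sfrp1, Sfrp4, Dkk3, Rspo2, Rspo3, Wnt5a and Wnt8a were not analysed here. Windows of 4 members, 1 each, are shown, chosen after their values and motif matches were seen: Wnt11 and Fzd7, which rose, and Fzd4 and Axin2, which fell. All are on the plus strand and are written 5′ to 3′ in lower case, with the motif in capitals.
Wnt11 (chr7:98834862-98835161): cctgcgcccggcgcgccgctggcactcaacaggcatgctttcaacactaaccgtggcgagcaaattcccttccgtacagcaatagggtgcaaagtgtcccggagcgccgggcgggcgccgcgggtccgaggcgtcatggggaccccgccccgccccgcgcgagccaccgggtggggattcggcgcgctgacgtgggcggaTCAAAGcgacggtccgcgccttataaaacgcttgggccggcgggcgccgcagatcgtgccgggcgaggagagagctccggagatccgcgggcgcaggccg
Fzd7 (chr1:59481897-59482196): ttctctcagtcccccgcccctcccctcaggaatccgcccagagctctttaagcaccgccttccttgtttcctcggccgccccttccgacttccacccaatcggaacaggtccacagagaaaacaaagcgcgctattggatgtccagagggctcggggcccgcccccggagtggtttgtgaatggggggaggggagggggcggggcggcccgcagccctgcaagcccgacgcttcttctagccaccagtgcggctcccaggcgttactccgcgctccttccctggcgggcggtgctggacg
Fzd4 (chr7:89404116-89404415): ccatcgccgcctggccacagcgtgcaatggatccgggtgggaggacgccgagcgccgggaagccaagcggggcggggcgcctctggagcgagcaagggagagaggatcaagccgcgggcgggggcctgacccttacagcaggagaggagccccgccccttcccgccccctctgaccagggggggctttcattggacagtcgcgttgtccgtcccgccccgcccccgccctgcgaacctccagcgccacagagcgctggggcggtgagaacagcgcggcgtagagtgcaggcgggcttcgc
Axin2 (chr11:108920099-108920398): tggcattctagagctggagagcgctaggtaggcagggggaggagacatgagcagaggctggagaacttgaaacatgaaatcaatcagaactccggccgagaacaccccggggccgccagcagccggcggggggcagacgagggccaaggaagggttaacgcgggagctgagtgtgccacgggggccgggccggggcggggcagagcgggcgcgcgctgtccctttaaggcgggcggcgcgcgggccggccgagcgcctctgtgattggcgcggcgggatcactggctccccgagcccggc
Of these, the Wnt11 window shown holds the motif, with its first base 50 bases before the start site, and the other 3 do not contain these letters. The table has a second Wnt11 window (chr7:98838595-98838894), not printed, which does not contain them either. A match is a description of the sequence and not a binding site.

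Frizzled receptors fell in sum but not alike. Of the 8 tested, 5 were lower in MI, 2 were higher and Fzd2 was not called. Fzd4 (Entrez 14366, chromosome 7 from 89404366 to 89410110, GRCm38.p6), the receptor tied to retinal vessel growth, was the most abundant Frizzled transcript per length in every library. It measured 210.6, 221 and 222 CPM in sham and 88.9, 72.9 and 73.1 CPM in MI, with wide separation between the groups. Fzd4 fell 2.78-fold (log2 fold change -1.48 ± 0.10, SE, adjusted p = 4.90e-08 in edgeR's test).

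Fzd6 (chromosome 15, 39006149 to 39038192), a receptor of planar polarity in hair and skin, had 62.6, 78.8 and 78.1 CPM in sham and 17.4, 12.0 and 11.8 CPM in MI. It fell 5.33-fold (log2 fold change -2.41 ± 0.16, adjusted p = 6.16e-08), the largest fall among the Frizzled genes tested. Fzd8, a receptor of canonical signals, was nearly constant within each group, at 15.3, 14.9 and 16.0 CPM in sham and 4.61, 4.71 and 4.67 CPM in MI. It fell 3.30-fold (log2 fold change -1.72 ± 0.15, adjusted p = 6.60e-07 in edgeR's test).

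Fzd7 and Fzd5 rose while those 3 receptors fell. Fzd7, widely studied in stem cells and tumours, went from 12.1, 13.6 and 8.28 CPM in sham to 28.2, 20.4 and 23.3 CPM in MI, so that the lowest MI library exceeded the highest sham library. The rise was 2.10-fold (log2 fold change 1.07 ± 0.19, adjusted p = 2.84e-04 in edgeR's test). Fzd5, a receptor for Wnt5a that myeloid cells are known to carry, went from 13.9, 10.3 and 10.2 CPM to 25.0, 22.1 and 20.1 CPM. Fzd5 rose 1.95-fold (log2 fold change 0.96 ± 0.16, adjusted p = 1.84e-04), also without overlap.

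Among the remaining receptors, Fzd1 measured 10.4, 7.19 and 12.4 CPM in sham and 6.52, 6.73 and 5.97 CPM in MI. Fzd1 fell 1.56-fold (adjusted p = 0.0126 in edgeR's test), a call lost without sham 1 (adjusted p = 0.0521) or sham 3 (0.0888), with a range of 7.71e-04 to 1 over the alternatives. Fzd3, a receptor of axon guidance with 6 to 9 counts per sham library and 4 to 18 per MI library, fell 2.98-fold (adjusted p = 0.0169 in edgeR's test). The call was lost without sham 1 (adjusted p = 0.0516) or sham 2 (0.0930), with a range of 0.00599 to 0.148. Fzd3 passed the filter in all sham but not in all MI libraries, so these p-values are descriptions. Fzd2, known in mesenchymal cells, overlapped between groups at 1.98, 3.60 and 4.69 CPM in sham and 2.28, 2.49 and 2.34 CPM in MI. It was not called (adjusted p = 0.146 in edgeR's test); without sham 1 or with total-count scaling it passed as lower (0.0344 and 0.0233, in a range of 0.0233 to 1). Sham 1 was its lowest sham library, so leaving it out raises the sham mean. With total-count scaling, 49.6% of all tested genes were lower. Those calls of Fzd2 are descriptions only. Fzd9 and Fzd10 held 2 and 0 counts over the sham libraries and 5 and 1 over the MI libraries.

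The make-up of the Frizzled pool differed between groups. As a share of summed Frizzled TPM, Fzd4 took 52.7 ± 0.389% in sham and 44.0 ± 0.124% in MI (SD, n = 3). Fzd6 took 28.6 ± 1.29% and 12.7 ± 1.36%. Fzd7 took 3.66 ± 0.978% and 18.1 ± 1.13%, and Fzd5 took 2.60 ± 0.598% and 11.9 ± 0.712%. For each of these 4 receptors the sham and MI ranges were separate. In sham the order of levels by TPM was Fzd4, Fzd6, Fzd8 and then Fzd7, Fzd1 and Fzd5, whose ranges overlapped. In MI, Fzd4 (17.96 to 25.4 TPM) came first, Fzd7 (6.85 to 10.7 TPM), Fzd6 (4.76 to 8.17 TPM) and Fzd5 (4.96 to 6.62 TPM) overlapped with their neighbours in that order, and Fzd1 (2.31 to 2.73 TPM) and Fzd8 (2.28 to 2.52 TPM) followed. Shares by CPM, which are not scaled to length, gave Fzd4 63.2% in sham and 51.3% in MI.

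**Figure D2:**
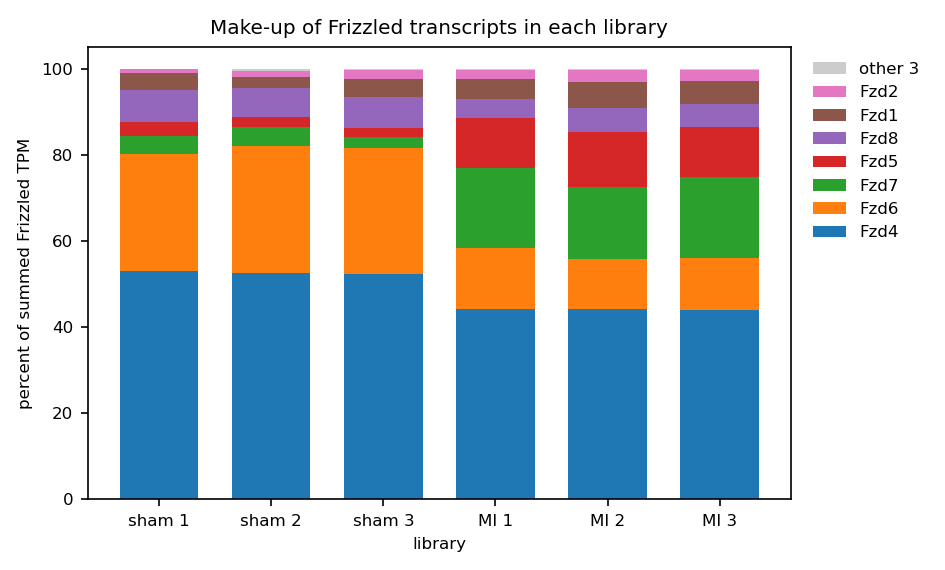
Stacked bars of the percent of summed Frizzled TPM taken by each receptor in each library, with 3 receptors of low level joined in grey. Fzd6 shrinks from 27.1 to 29.5% in sham to 11.7 to 14.2% in MI, and Fzd7 and Fzd5 widen.

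Pecam1 fell too in these libraries (log2 fold change -2.05), and levels were therefore also set against it. Per 100 CPM of Pecam1, Fzd4 averaged 13.6 ± 0.232 CPM in the sham and 20.3 ± 2.71 CPM in the MI libraries (SD, n = 3), and Fzd8 0.961 ± 0.0325 and 1.21 ± 0.00732 CPM. For Fzd6 the ranges overlapped, with 3.96 to 4.90 CPM for sham against 3.03 to 4.59 CPM for MI. The falls of Fzd4 and Fzd8 in CPM were thus smaller than that of Pecam1. Fzd7 and Fzd5 were 8.79 and 8.13 times as high per Pecam1 in MI as in sham. Ptprc, the pan-leukocyte gene, rose more (log2 fold change 2.69) than any tested member (at most 1.89, Sfrp2). A lower level per Ptprc in MI, seen for all 21 members that reached 1 CPM, therefore follows from the choice of Ptprc. Fzd5 went from 10.8 ± 1.69 to 3.30 ± 0.364 CPM per 100 CPM of Ptprc, and Fzd7 from 10.7 ± 2.45 to 3.50 ± 0.0754. Which cells carried a receptor was not tested.

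Of the 2 co-receptors, Lrp5 fell by a small amount and Lrp6 was not called. Lrp5, which pairs with Fzd4 in retinal vessels, measured 109.6, 100.4 and 109.6 CPM in sham and 70.7, 79.2 and 81.7 CPM in MI. Lrp5 fell 1.38-fold (log2 fold change -0.46 ± 0.09, adjusted p = 7.38e-04 in edgeR's test), with every MI library under every sham library. Lrp6, its close relative with broad expression, measured 81.4, 83.7 and 67.7 CPM in sham and 77.8, 55.1 and 59.8 CPM in MI, with overlap. It did not pass (log2 fold change -0.27 ± 0.14, adjusted p = 0.0919 in edgeR's test). Without MI 1, the highest MI library, Lrp6 was called lower (log2 fold change -0.41, adjusted p = 6.78e-05), as with total-count scaling (0.00163) or MI thinned to sham depth (0.0328), and the adjusted p ran up to 1. Per length, Lrp5 exceeded Lrp6 in every library, at 39.2 ± 1.84 against 15.7 ± 1.81 TPM in sham and 25.4 ± 1.11 against 12.1 ± 3.00 TPM in MI. The 3 R-spondin genes stayed under 1 CPM in both groups: Rspo1 had 2, 1 and 7 counts in sham and 6, 7 and 7 in MI, Rspo3 had 1 count over the sham and 5 over the MI libraries, and Rspo2 had 0 and 2.

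The make-up of the secreted antagonists differed between groups, with Dkk3 and Wif1 falling and Sfrp1 and Sfrp2 rising. Over 8 genes the summed level was 21.2 ± 0.908 TPM in sham and 20.8 ± 1.49 TPM in MI, with overlapping ranges. The direction of that sum depended on the unit: it was lower in MI in FPKM (12.7 ± 0.514 and 10.9 ± 0.545) and higher in CPM (35.3 ± 1.39 and 39.5 ± 1.59), in both without overlap. Dkk3 (chromosome 7, 112116019 to 112159482), a divergent Dickkopf protein made by mesenchymal cells, led in sham with 25.0, 21.1 and 19.9 CPM and measured 3.50, 3.34 and 3.32 CPM in MI. Dkk3 fell 6.49-fold (log2 fold change -2.70 ± 0.16, SE, adjusted p = 1.61e-08 in edgeR's test). Its share of summed antagonist TPM was 59.4 ± 5.43% in sham and 8.32 ± 0.530% in MI.

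Sfrp1 and Sfrp2, which bind Wnt ligands through a Frizzled-like domain, were the leading antagonist transcripts in MI. Sfrp1 (chromosome 8, 23411383 to 23449632) measured 4.95, 7.70 and 8.01 CPM in sham and 25.8, 24.8 and 24.4 CPM in MI. It rose 3.65-fold (log2 fold change 1.87 ± 0.17, adjusted p = 8.72e-07 in edgeR's test), and its lowest MI library was far above its highest sham library. Sfrp2, studied in cardiac fibrosis, measured 2.47, 2.31 and 3.04 CPM in sham and 9.18, 11.0 and 8.88 CPM in MI. It rose 3.72-fold (log2 fold change 1.89 ± 0.23, adjusted p = 1.17e-05), again with no overlap. Sfrp1 and Sfrp2 made up 14.3 ± 4.14% and 11.8 ± 1.70% of antagonist TPM in sham, and 47.2 ± 2.33% and 40.3 ± 3.05% in MI.

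Wif1, which binds Wnt ligands directly, fell with Dkk3. It had 8, 10 and 10 counts in sham and 7, 7 and 4 in the deeper MI libraries, or 1.98, 2.57 and 2.76 CPM against 0.371, 0.371 and 0.208 CPM. Wif1 fell 7.46-fold (log2 fold change -2.90 ± 0.41, adjusted p = 4.56e-05 in edgeR's test). It passed the filter only through its sham libraries, so this p-value is a description. Dkk1, the classical inhibitor of Lrp6, had 1 count over the sham libraries and 8 over the MI libraries. Dkk2 had 7, 2 and 0 counts in sham and 21, 14 and 11 in MI, and Sfrp4 and Sfrp5 at most 7 counts over a group.

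**Figure D3:**
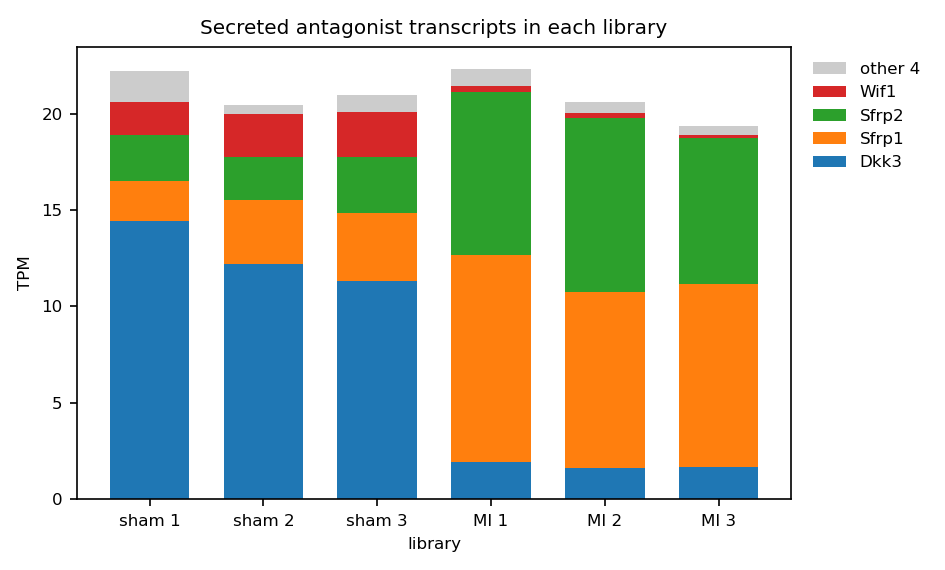
Stacked bars of TPM of the secreted antagonists in each library, with 4 genes of low level joined in grey. Total height is similar in all 6 libraries, while Dkk3 fills most of the sham bars and Sfrp1 and Sfrp2 most of the MI bars.

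Most fibroblast genes fell in the same libraries (13 lower and 3 higher of 16), with Col1a1 among the 3 that rose. Dcn, a proteoglycan gene of resting fibroblasts, fell from 601 ± 14.1 to 106 ± 7.42 CPM (adjusted p = 1.39e-10 in edgeR's test), while Col1a1, a collagen I gene, rose from 66.1 ± 8.79 to 417 ± 30.7 CPM (7.48e-10). Per 100 CPM of Dcn, Dkk3 averaged 3.66 ± 0.536 CPM in the sham and 3.19 ± 0.131 CPM in the MI libraries and Wif1 0.404 ± 0.0589 and 0.297 ± 0.0866 CPM. For both genes the ranges of the groups overlapped. The fibroblast genes Pdgfra and Tcf21 fell less than Dcn (log2 fold change -1.73 and -1.82, against -2.50), while Dkk3 fell by -2.70. Dkk3 and Wif1 were not set against Pdgfra or Tcf21, so the overlap is shown for Dcn only. Against Col1a1, Dkk3 and Wif1 were far lower in MI, which follows from its rise and their falls. Dkk3 went from 33.3 ± 1.503 to 0.817 ± 0.0864 CPM per 100 CPM of Col1a1 and Wif1 from 3.79 ± 1.09 to 0.0766 ± 0.0251. Sfrp1 and Sfrp2 were 20.6 and 21.1 times as high per Dcn in MI. Per 100 CPM of Col1a1, Sfrp1 averaged 10.8 ± 3.77 CPM in the sham and 6.03 ± 0.616 CPM in the MI libraries, with overlapping ranges, and Sfrp2 averaged 4.04 ± 1.11 and 2.33 ± 0.218 CPM, without overlap. The part of fibroblast state or number in these levels was not tested.

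The TCF and LEF factors split as well. Tcf7l2, the factor of most adult tissues, measured 7.42, 7.96 and 8.01 CPM in sham and 17.98, 13.5 and 14.1 CPM in MI. Tcf7l2 rose 1.95-fold (log2 fold change 0.96 ± 0.18, adjusted p = 4.29e-04 in edgeR's test) without overlap. Its direction against a marker gene depended on the marker. Tcf7l2 was 8.11 times as high in MI per Pecam1 and 10.96 times as high per Dcn, but lower per 100 CPM of Ptprc, at 7.37 ± 0.488 CPM for sham and 2.22 ± 0.0450 CPM for MI. Tcf7, best known from T cells, measured 1.98, 3.34 and 2.76 CPM in sham and 0.849, 0.635 and 0.934 CPM in MI. Tcf7 fell 3.30-fold (log2 fold change -1.72 ± 0.35, adjusted p = 8.37e-04 in edgeR's test) on 8 to 13 counts per sham library. This p-value is a description, as Tcf7 passed the filter in all sham but not in all MI libraries. Lef1, also a T cell factor, had 0 counts in every sham library and 3, 2 and 0 in MI, under the level that 3 sham counts stand for. Of 13 T and natural killer cell genes in the table, 5 were tested, 2 were higher in MI and 0 lower, and the summed level was 5.91 to 9.90 CPM in sham and 74.5 to 89.7 CPM in MI. Most of that sum in MI was Il7r (1.03 ± 0.495 to 64.9 ± 9.37 CPM) and Cd4 (2.31 ± 0.656 to 12.6 ± 1.504 CPM). The defining T cell receptor genes Cd3e, Cd3d and Cd3g held 1, 3 and 0 counts over the sham libraries and 0, 4 and 2 over the MI libraries, and 4 genes of the list were at 0 in sham and 1 in MI. The part of T cells in the levels of Tcf7 and Lef1 was not tested. Tcf7l2 took 77.0 ± 4.59% of the summed TPM of these 3 factors in sham and 95.6 ± 0.550% in MI.

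Axin2 (chromosome 11, 108917828 to 108950783), the feedback inhibitor that is used most often as a readout of canonical signalling, was low in both groups and lower in MI. It had 9, 11 and 6 counts in sham and 4, 10 and 8 in the deeper MI libraries, or 2.23, 2.83 and 1.66 CPM against 0.212, 0.530 and 0.415 CPM. Axin2 fell 5.69-fold (log2 fold change -2.51 ± 0.44, SE, adjusted p = 2.81e-04 in edgeR's test). As Axin2 passed the filter on low counts only through its sham libraries, this p-value is a description. Per 100 CPM of Pecam1 its ranges overlapped, with 0.102 to 0.176 CPM for sham against 0.0559 to 0.136 CPM for MI. Per Dcn its group means were also close, at 0.373 ± 0.0988 and 0.370 ± 0.172 CPM. Against genes that rose, Axin2 was 35.3 times lower in MI per Ptprc, 37.2 times lower per Col1a1 and 86.8 times lower per Cd68. The direction of these ratios follows from the rise of those genes and the fall of Axin2.

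**Figure D4:**
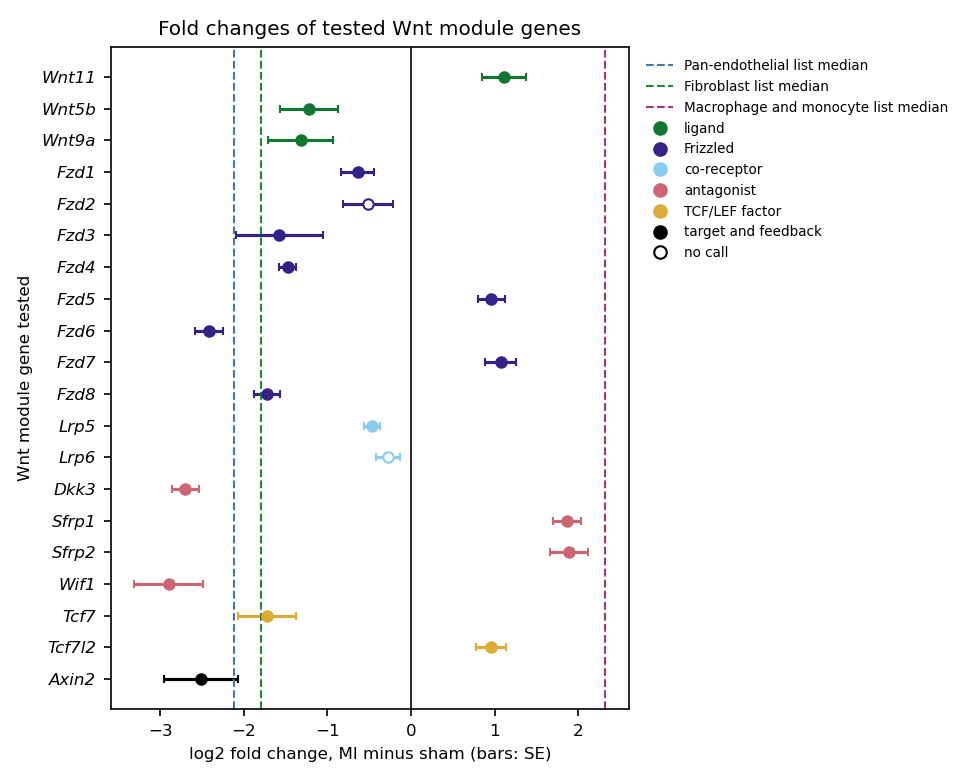
Log2 fold change (MI minus sham) with its SE for the 20 tested Wnt genes, coloured by role, with open circles for the 2 genes not called. Dashed lines mark the median of the pan-endothelial (-2.12), fibroblast (-1.79) and macrophage (2.32) marker lists, and the 6 rises all lie under the macrophage median.

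Genes of the pathway outside the module were taken from 7 lists. Counted once each, 104 were in the table, 96 were tested, 28 were higher, 43 lower and 25 not called, with a median log2 fold change of -0.28. These calls, and those of each list below, can be read against 73.3% called over all tested genes (36.4% higher, 36.9% lower). Examples are those of smallest p in each list. For ligand release, 1 of 5 tested genes was higher and 4 were lower. Wls, the carrier that brings Wnt proteins to the surface, rose from 83.7 ± 6.41 to 117 ± 8.72 CPM, and Porcn, the enzyme that attaches their lipid, fell from 4.83 ± 0.543 to 2.14 ± 0.622 CPM. The rise of Wls was not called with total-count scaling. The glypican genes Gpc4 (29.1 ± 1.73 to 12.5 ± 1.00 CPM) and Gpc6 (22.8 ± 3.89 to 12.0 ± 0.610 CPM) fell.

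Among genes of receptor turnover and co-receptors, 5 of 9 tested were lower and 1 was higher. Tspan12, a partner of Fzd4 in Norrin signalling, fell from 151 ± 7.98 to 23.8 ± 5.89 CPM (log2 fold change -2.67). Reck and Adgra2, which together present Wnt7 ligands to endothelial Frizzled, fell from 11.8 ± 0.712 to 3.09 ± 0.479 CPM and from 44.0 ± 5.42 to 28.5 ± 1.71 CPM. No Wnt7 gene was in the table. Lgr4, an R-spondin receptor gene, fell from 7.50 ± 3.07 to 3.48 ± 0.767 CPM. Lgr5 and Rnf43 had 0 counts over the sham libraries and 12 and 10 over the MI libraries. Of 6 further antagonist genes tested, 4 were lower and 1 higher. The higher one, Lrp4, went from 5.32 ± 1.87 to 8.98 ± 0.952 CPM (adjusted p = 0.0118 in edgeR's test); the call was lost without sham 2 or sham 3 and with total-count scaling. Tmem88, which binds Dishevelled, fell from 199 ± 8.46 to 47.1 ± 9.17 CPM, Sost, which encodes the Lrp5 and Lrp6 inhibitor sclerostin, from 5.74 ± 0.843 to 0.227 ± 0.0774 CPM, and Igfbp4 from 153 ± 5.32 to 82.7 ± 11.5 CPM.

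Intracellular transducers were mixed, with 9 lower, 6 higher and 8 not called of 23. Ctnnb1, which encodes beta-catenin, also a junction protein, fell from 1301 ± 39.6 to 495 ± 17.1 CPM (log2 fold change -1.39). Axin1, the constitutive scaffold of the destruction complex, rose from 33.5 ± 3.67 to 71.0 ± 3.69 CPM, as did Fbxw11, a ubiquitin ligase subunit for beta-catenin (90.9 ± 2.97 to 216 ± 10.3 CPM), and the kinase gene Csnk1d (112 ± 6.49 to 187 ± 14.1 CPM). With total-count scaling the counts were 12 lower and 4 higher, where 49.6% of all tested genes were lower and 26.5% higher. Of 18 nuclear partners, 7 were lower and 5 higher, or 12 and 3 with total-count scaling. Ctnnbip1, an inhibitor of beta-catenin, fell from 155 ± 3.79 to 48.1 ± 2.78 CPM and Sox17, an endothelial factor, from 94.8 ± 3.33 to 26.9 ± 3.09 CPM, whereas the co-repressor gene Tle3 (49.1 ± 2.76 to 109 ± 2.11 CPM) and the co-activator gene Crebbp (34.4 ± 4.29 to 87.0 ± 12.6 CPM) rose.

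In the non-canonical list 9 of 19 were lower and 4 higher. The 4 genes of smallest p all fell: Prickle1 went from 73.7 ± 4.79 to 11.9 ± 0.959 CPM, Prickle2 from 31.4 ± 3.25 to 7.13 ± 1.35 CPM and Vangl1 from 23.9 ± 3.36 to 7.23 ± 0.541 CPM, all of planar polarity. Ryk, a Wnt co-receptor with a kinase-like domain, fell from 59.2 ± 5.10 to 15.6 ± 0.497 CPM. The 4 that rose were the kinase gene Camk2d (45.7 ± 2.01 to 108 ± 12.7 CPM), Scrib (28.2 ± 3.00 to 45.3 ± 4.76 CPM), Nfatc1 (37.3 ± 3.64 to 49.4 ± 3.16 CPM) and Celsr3, with 3 counts over the sham and 173 over the MI libraries. Celsr3 and Scrib are planar polarity genes too, and Celsr1, Celsr2 and Ptk7 were not called. Genes that other work names as beta-catenin targets did not share a direction, with 11 higher and 8 lower of 20 (median 0.85). Cd44, a hyaluronan receptor gene also high in leukocytes, rose from 83.4 ± 9.69 to 1449 ± 199 CPM, the glucose transporter gene Slc2a1 from 23.4 ± 1.33 to 166 ± 10.9 CPM and the receptor gene Met from 1.92 ± 0.512 to 76.3 ± 20.8 CPM. In contrast, the junction gene Cldn5, which is also in the pan-endothelial list, fell from 289 ± 11.7 to 47.7 ± 7.91 CPM.

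**Figure D5:**
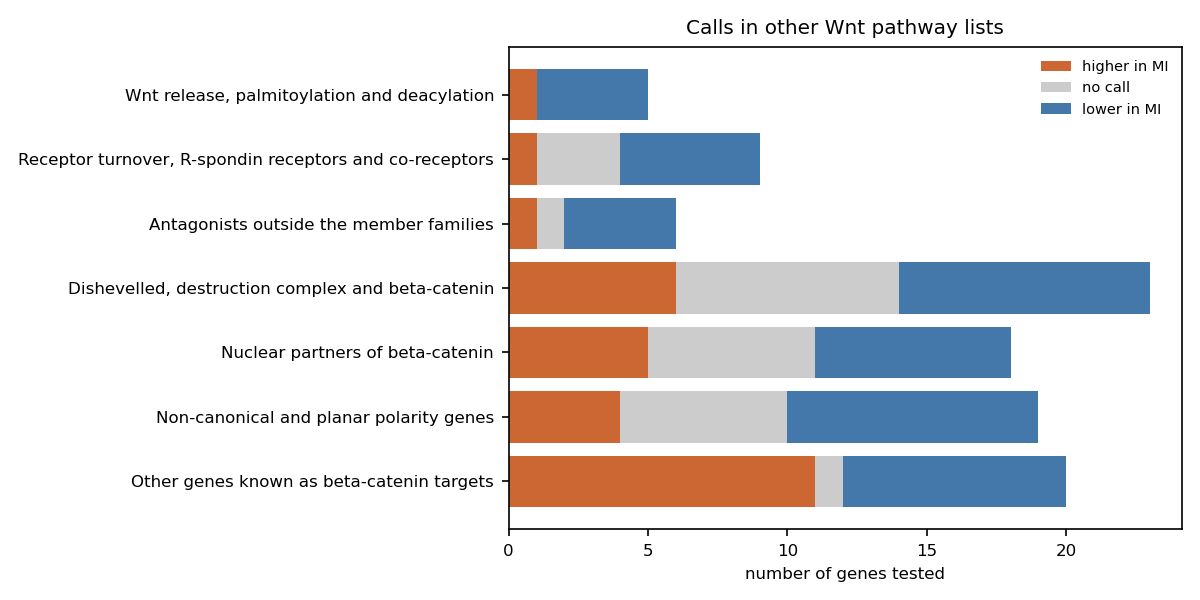
Number of tested genes called higher in MI, not called and called lower in each of 7 lists of other Wnt pathway genes (bar length is the number tested). Lower calls outnumber higher calls in every list except that of beta-catenin targets (11 higher, 8 lower).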

How the data were processed

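The 6 libraries were grouped and numbered from their titles. The authors mapped reads to mouse GRCm38 per the design text (GRCm38.p6 per the submitters' processing notes); for aligner, counting program and annotation the sources used here give nothing. Per the file headers, the deposited values were unscaled estimated counts, FPKM, TPM and the authors' own scaled counts, here treated as a signal. Counts were rounded. In R 4.3.3, edgeR 4.0.16 applied filterByExpr, TMM scaling and the quasi-likelihood test, sham against MI, with Benjamini-Hochberg adjustment over 13370 genes; each SE was obtained from the fold change and its F statistic (|log2 fold change| over root F). TPM served to compare genes within a library, and FPKM and CPM sums were set beside it. Alternatives used DESeq2 1.42.0 and limma 3.58.1. The authors' 8 group averages were not used. The procedure was tested on simulated data. RefSeq positions (GRCm38.p6) matched all 41 members by gene ID. The members, lists and tests were chosen with earlier results of these data known. Named genes were all members reaching 1 CPM, members under it with counts in 1 group or passing a test, the defining marker genes, and up to 4 genes of smallest p per other list; other names were chosen after their values were seen. Alternatives are given in the closing section. Counts can be divided among similar genes, and strand use was not stated. Intervals and limits from 3 counts cover counting error only.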

Additional observations from a re-analysis of the deposited data

How the results depend on the processing

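None of the 20 tested Wnt genes changed direction under any alternative in which it was tested. The count of members called higher was 6 (36.4% of all genes), and it was 2 when a fold change above 2 was tested (15.9% of all genes). The count called lower was 12 (36.9% of all genes), and it was 7 when a fold change above 2 was tested (15.3% of all genes). It was also 7 with a stricter filter and 7 with MI thinned to sham depth. With the stricter filter and thinning, which test 15 and 13 members, 37.3% and 37.1% of all genes were lower. Leaving out 1 library gave 10 to 12 lower of 18 to 25 members tested, with 32.1% to 40.1% of all genes lower. Scaling to total counts gave 14 lower, with 49.6% of all genes lower. The median log2 fold change was -0.93, and it was -1.28 with total-count scaling, -0.51 with the stricter filter, -0.28 thinned and -0.59 with limma on log2(TPM + 1), and -1.24 to -0.54 without 1 library (-1.24 without sham 2, -0.54, -0.61 and -0.55 without MI 1, MI 2 or MI 3), where the number of members tested also changes. The cause of the shifts with scaling and unit was not tested. Members reaching 1 CPM numbered 21, or 22 with total counts, 26 at 0.5 CPM, 19 at 2 CPM and 20 when every library had to reach it. With the replicate number as a block, 6 members were higher and 12 lower (35.6% and 36.4% of all genes; median -0.92), and the block changed no member's call. Deviations of libraries with the same number correlated at -0.048, -0.021 and 0.016, and those with different numbers at -0.037 to 0.042. With 3 libraries a group, these values cannot decide whether the numbers mark paired libraries. Depth limits the sham values most: 1 count there is 0.247 to 0.276 CPM.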
